A study of Ovis aries with 3 samples.

Results

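The constitutive proteasome genes were taken as every row of the gene table whose symbol began with PSMA, PSMB, PSMC, PSMD, PSME or PSMG, leaving out PSMB8, PSMB9 and PSMB10. This rule used symbols and no measured value, and it found 38 of 26247 genes. Of 42 genes listed by role (the rings of the 20S core, the 19S particle, activators and assembly chaperones), 36 were among them, including 28 of 31 subunits of the core and the 19S particle. PSMA2, PSMB6, PSMC6, PSMD9, PSMD10 and PSMG4 were not analysed here. The other 2 genes caught by the prefix were PSMA8, a testis form of an alpha subunit, and PSMC3IP, a factor of meiotic recombination that is not a proteasome subunit.

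The libraries were droplet-based single-cell RNA libraries of rumen epithelium from Hu sheep aged 42 days. There was 1 library for each diet: milk only, milk with alfalfa hay, and milk with concentrate starter, so all 3 groups received milk. The labels do not say how many animals each library came from. The series title names concentrate feeding and keratinocyte differentiation as its subject.

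The proteasome is the protease that degrades proteins tagged with ubiquitin. Its 20S core is a stack of alpha and beta rings, in which the beta subunits PSMB5, PSMB6 and PSMB7 carry the proteolytic sites. The 19S particle caps the core, and its PSMC ATPases unfold the substrate while its PSMD subunits bind and remove ubiquitin. PSME1 and PSME2 together form PA28, an activator that opens the core without ubiquitin, and PSMG proteins assemble the alpha ring. In immune cells and after interferon exposure, PSMB8, PSMB9 and PSMB10 take the places of the 3 constitutive catalytic subunits.

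Cells with at least 500 genes and under 20% mitochondrial UMIs (unique molecular identifiers, counted transcript molecules) were kept, which left 3850 cells fed milk only, 7031 with hay and 4891 with concentrate. The libraries held 56861548 to 63057979 UMIs over all barcodes. Median UMIs per kept cell were 11021, 5887 and 8050, and the median mitochondrial share was 6.18%, 9.75% and 10.2%. Between 15 and 28 cell barcodes were shared by any 2 libraries, and 0 by all 3. Cells of different diets mostly fell into different clusters. The other keratinocytes, which are the clusters that no marker list named, were mainly clusters 6 and 7 in milk only (1159 and 1027 of 2236 cells), clusters 0, 3 and 4 in hay (2432, 1849 and 1257 of 5983) and clusters 1 and 5 in concentrate (2152 and 1104 of 3606). KRT15, a keratin of basal epithelium, was at 7989, 6304 and 7879 CPM (counts per 1e6 UMIs of the group) in all keratinocytes together. With 1 library per diet, diet and library cannot be told apart, and no test between diets was possible. Intervals are exact 95% intervals that cover counting error only. A gene is called higher or lower where 2 summed counts differed by at least 1.5-fold with the interval of the ratio off 1, among genes at 10 CPM or more in at least 1 of the groups compared.

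In the keratinocytes of all 3 libraries, most members were detected well above this minimum, and their summed level was nearly equal across diets. The 38 genes summed to 5203 CPM in milk only, 5230 CPM in hay and 5555 CPM in concentrate, from 44433705 to 46873244 keratinocyte UMIs per library. The minimum was met by 32 of the 38 members. PSMA8, PSMC3IP, PSMD13, PSMG3, PSMD3 and PSMA1 stayed under it in every library. Processed copies and close paralogues of proteasome genes could share reads with them, and the files do not show how such reads were counted, so low levels of single members are uncertain.

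The 2 rings of the core summed to 2951, 3133 and 3200 CPM in milk only, hay and concentrate, and the 19S particle to 1798, 1773 and 2026 CPM. The 4 activator genes summed to 289, 203 and 208 CPM, although PSME4 among them was highest in concentrate. The 3 assembly chaperones were also lowest outside milk only, at 131, 92.4 and 87.8 CPM. Over all keratinocytes, the milk-only library thus had the lowest core sum and the highest sums of activators and assembly chaperones. In cycling cells the core sum was lowest in hay instead, at 3557, 3437 and 3626.5 CPM in milk only, hay and concentrate. In other keratinocytes of milk only it was 2386 CPM in cluster 7 and 2966 CPM in cluster 6. Hay had 3092, 3101 and 2908 CPM in clusters 0, 3 and 4, and concentrate 3190 and 2379 CPM in clusters 1 and 5.

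**Figure D1:**
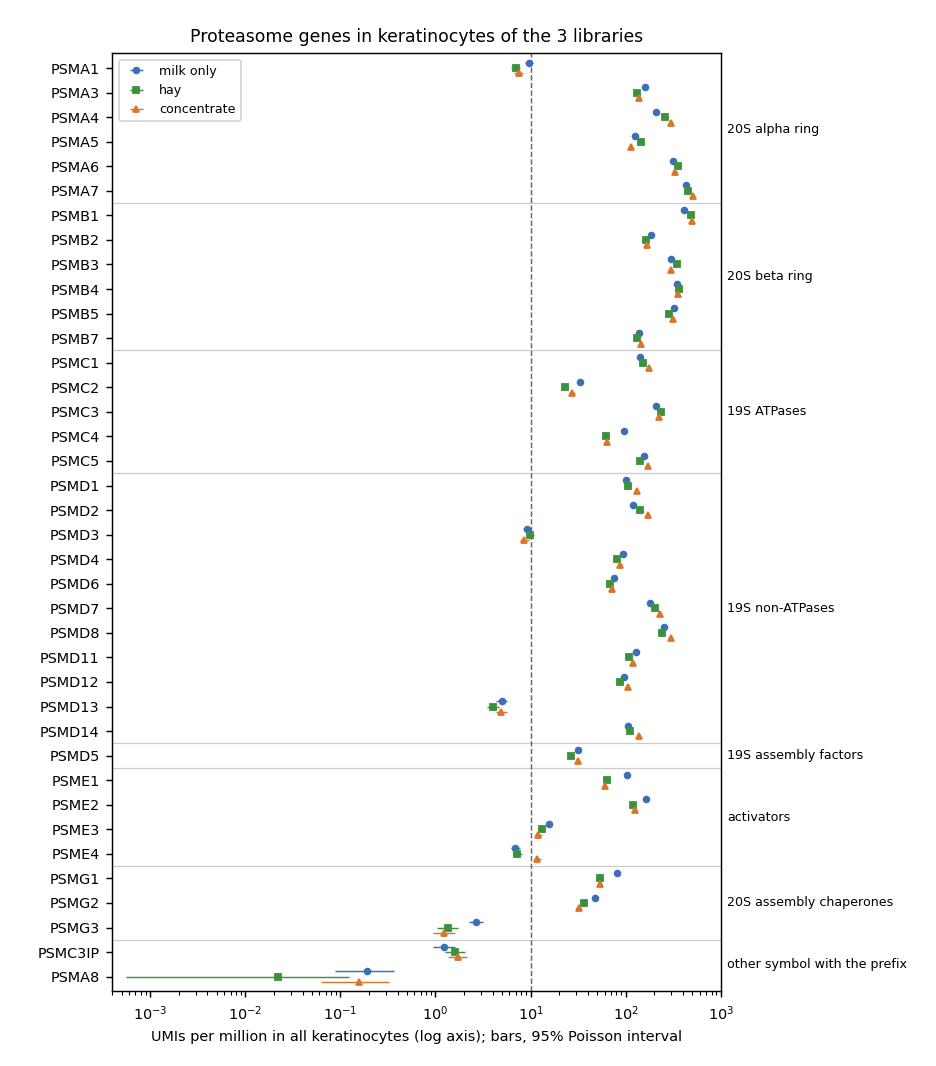
Level of each of the 38 genes in all keratinocytes, in CPM on a log axis, with 1 symbol per library and exact 95% Poisson intervals as bars; genes are grouped by role and the dashed line marks 10 CPM. The 3 symbols of most core and 19S genes lie close together, while PSME1, PSMC4 and PSMG1 sit higher in milk only and PSME4 higher in concentrate.

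Against milk only, hay keratinocytes had 0 of 32 measured members called higher and 2 called lower, PSMC4 and PSME1. Over all 4754 measured genes, 25.9% were called, 5.13% higher and 20.7% lower. The members' median log2 ratio was -0.10, and that of all genes -0.16. Within 0.32 of 0 on the log2 scale were 81.2% of the members and 49.4% of all genes. Scaling to the median ratio of all genes moved the members' median to 0.07, so its sign depended on the scaling, and left 0 members called. It also moved the share of higher among all called genes from 19.8% to 38.4%. Without cluster 7, a mostly milk-only cluster, 5 members were called, all lower. The share of all genes in that setting is not given here, so this count has no background. Cluster 7 had the highest sum of the immediate early genes FOS, FOSB, JUN, ATF3 and ZFP36, 15594 CPM, and clusters 5 and 4 followed with 6034 and 4651 CPM.

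Concentrate keratinocytes had 1 member called higher than in milk only, PSME4, and 2 called lower, again PSMC4 and PSME1, of 32. Over all genes 22.3% were called, 9.38% higher and 13.0% lower. The medians were 0.03 for members and 0.04 for all genes. Scaling by the median ratio turned the members' median to -0.01 and added PSMG1 and PSMG2 to the lower calls. The 2 comparisons share the milk-only library, so their common low genes are not independent of each other.

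The diets were also compared within classes, a step added after the data were seen. Pooled keratinocytes mix classes in unequal shares, since differentiated cells were 21.1% of kept cells in milk only, 0.754% in hay and 1.86% in concentrate. Within cycling cells, hay had 0 of 34 members called higher and 6 lower than milk only (PSMA1, PSMC2, PSMC4, PSME1, PSME2 and PSMG1), against 4.81% and 23.6% of all genes. PSMA1, at 12.5, 8.24 and 7.68 CPM in milk only, hay and concentrate, met the minimum there through milk only alone. A call for PSMA1 against milk only could therefore only be a lower one. Within other keratinocytes 0 of 33 were higher and 1 lower, PSME1, against 5.63% and 22.4%. Within differentiated cells 1 of 34 was higher, PSMC3, and 3 were lower, PSMC2, PSME1 and PSME2, against 8.55% and 10.3%. Median-ratio scaling left PSME1 alone called in cycling cells and PSMA4 alone, higher, in other keratinocytes. It moved the share of higher among all called genes from 16.9% to 41.5% in cycling cells and from 20.1% to 41.2% in other keratinocytes. With totals that omitted the 50 top genes by abundance, these shares were 32.8% and 31.2%.

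In concentrate cycling cells 1 of 34 members was called higher than in milk only, PSME4, and 3 lower, PSMA1, PSME1 and PSMG1, against 8.75% and 13.7% of all genes. Here too PSMA1 met the minimum through milk only alone and could only be called lower. In other keratinocytes 1 of 33 was higher, PSME4, and 3 lower, PSMC4, PSME1 and PSMG2, against 8.30% and 14.8%. Differentiated cells had the most calls, with 5 of 34 higher and 6 lower, against 12.7% and 14.8%. The higher genes were PSMA4, PSMD1, PSMD2, PSMD7 and PSME4, and the lower ones were PSMA3, PSME1, PSME2, PSME3, PSMG1 and PSMG2. Of the differentiated cells, all 814 of milk only lay in cluster 8, and 77 of 91 of concentrate and 36 of 53 of hay lay in cluster 13. With totals as the scaling, PSME1 was the single member called lower in all 3 classes of both libraries, and PSME4 was called higher in all 3 classes of concentrate. In each class PSME4 met the minimum through the concentrate library alone, so a call for it could only be a higher one there. Its calls in the 3 classes therefore do not back each other up.

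Between concentrate and hay, 1 of 32 members was called higher, PSME4, and 0 lower, while 15.6% of all genes were called, 13.7% higher and 1.87% lower. The members' median was 0.13 against 0.19 for all genes, and under median-ratio scaling it was -0.06, with 0 members called. That scaling moved the share of higher among all calls from 88.0% to 60.2%. Here 93.8% of the members had log2 ratios within 0.32 of 0, compared with 58.9% of all genes.

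**Figure D2:**
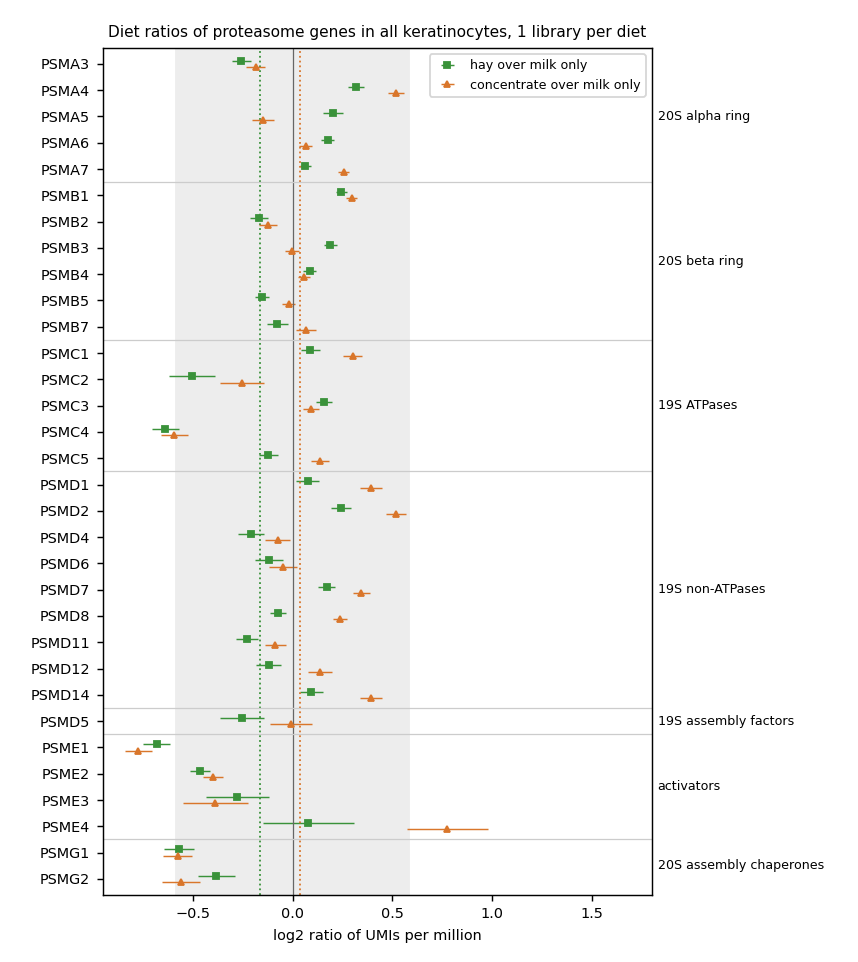
Log2 ratio of CPM in all keratinocytes for the 32 measured members, hay over milk only (squares) and concentrate over milk only (triangles), with exact 95% intervals; the grey band is 1.5-fold and each dotted line is the median of all measured genes. PSME1 and PSMC4 lie left of the band in both comparisons and PSME4 right of it for concentrate, while the core genes stay inside.

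Among the core genes, PSMA4, an alpha ring subunit, was at 210 CPM in milk only, 262 CPM in hay and 301 CPM in concentrate. Its log2 ratio over milk only was 0.32 in hay and 0.52 in concentrate, and neither was called. PSMA5, another alpha subunit, was highest in hay, with 127, 146 and 114 CPM. PSMA4 and PSMA5 thus differed in order across the libraries although both belong to the alpha ring.

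PSMB1, a beta ring subunit without a proteolytic site, stood at 410 CPM in milk only, 485 CPM in hay and 503 CPM in concentrate. PSMB3, also of the beta ring, was at 301, 343 and 300 CPM. The catalytic subunit PSMB5 was at 321 CPM (interval 316 to 326), 289 CPM (284 to 294) and 317 CPM (311 to 322), or log2 ratios of -0.15 in hay and -0.02 in concentrate over milk only. None of these beta subunits was called in a diet comparison over all keratinocytes.

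PSMC4, an ATPase of the 19S particle (ENSOARG00000006448), was at 95.9 CPM in milk only (interval 93.1 to 98.7), 61.6 CPM in hay (59.4 to 64.0) and 63.6 CPM in concentrate (61.2 to 65.9). The milk-only interval was apart from the others, whereas those of hay and concentrate overlapped. PSMC4 was 1.56-fold lower in hay (1.48 to 1.63) and 1.51-fold lower in concentrate (1.44 to 1.58) than in milk only. These calls lie at the threshold. In other keratinocytes PSMC4 was at 86.5 CPM in milk only, 58.7 CPM in hay and 56.6 CPM in concentrate, and it was called in concentrate but not in hay (1.47-fold lower, 1.39 to 1.56). In cycling cells, at 114, 72.0 and 77.2 CPM, it was called in hay alone. In differentiated cells, at 113, 102 and 85.8 CPM, it was called in neither library. Over all keratinocytes and under the other settings tried, its log2 ratio ranged from -0.75 to -0.43 for hay and from -0.69 to -0.51 for concentrate.

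Of the 19S non-ATPases, PSMD2, a scaffold subunit that receives ubiquitin-binding factors, was at 119 CPM in milk only, 141 CPM in hay and 171 CPM in concentrate. PSMD1, the other large scaffold subunit, was at 100.1, 105 and 131 CPM. PSMD8 was at 253, 240.3 and 298 CPM. The highest value of these 3 was that of concentrate, and none of the 3 was called over all keratinocytes. With the 50 most abundant genes left out of the totals, PSMD2 and PSMA4 were called higher in concentrate over milk only.

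PSME1 (ENSOARG00000019219) was at 103 CPM in milk only (interval 99.7 to 105), 64.0 CPM in hay (61.6 to 66.3) and 60.0 CPM in concentrate (57.8 to 62.3). It was 1.60-fold lower in hay (1.53 to 1.68) and 1.71-fold lower in concentrate (1.63 to 1.79) than in milk only. Its partner PSME2 was also highest in milk only, with 164, 119 and 124 CPM, but at log2 ratios of -0.47 and -0.40 it was not called. Among the 32 measured members PSME1 was the furthest below milk only in both libraries, while PSMG3, under the minimum, was at 2.69, 1.35 and 1.24 CPM. The PSME1 log2 ratio ranged from -0.84 to -0.52 for hay and from -0.90 to -0.68 for concentrate under the other settings.

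PSME1 was highest in milk only in each keratinocyte class, while the intervals of hay and concentrate overlapped in each. In other keratinocytes PSME1 was at 104 CPM in milk only, 65.2 CPM in hay and 61.4 CPM in concentrate. In cycling cells it was at 104, 59.6 and 59.0 CPM, and in differentiated cells at 94.6, 44.2 and 42.0 CPM. The differentiated values of hay and concentrate rest on 20 and 69 UMIs. All 3 classes come from the same 3 libraries, so their common direction is not repeated support.

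Immune cells, which had more PSME1 and PSME2 than keratinocytes, made up 11.6% of kept cells in milk only, 0.526% in hay and 1.92% in concentrate. In the keratinocytes, the 13 of 15 T or NK markers that had a symbol summed to 3.67 CPM in milk only, 0.888 CPM in hay and 0.360 CPM in concentrate, with 3, 5 and 6 of them at 0. The 14 macrophage or dendritic markers summed to 6.40, 0.666 and 0.833 CPM, with 5, 7 and 5 at 0, and PTPRC, the pan-leukocyte gene, stood at 0.533, 0.0444 and 0.0675 CPM. In the immune cells of the same libraries these sums were 1377 to 3180 CPM and 3983 to 6326 CPM. The markers were thus near 0 in keratinocytes and highest there in milk only. Their part in the PSME1 difference was not tested.

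PSME4, which encodes the nuclear activator PA200 (ENSOARG00000003753), was at 6.89 CPM in milk only (interval 6.16 to 7.68), 7.28 CPM in hay (6.51 to 8.11) and 11.8 CPM in concentrate (10.8 to 12.8). It met the minimum through the concentrate library alone, so a call for this gene could only come from a higher value there. The ratio of concentrate was 1.71 (1.49 to 1.97) to milk only and 1.62 (1.41 to 1.87) to hay. PSME3, the nuclear PA28-gamma, was at 15.8, 13.0 and 12.1 CPM with no call.

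PSMG1, a chaperone that starts the alpha ring, was at 80.7 CPM in milk only, 54.4 CPM in hay and 54.1 CPM in concentrate. At log2 ratios of -0.57 and -0.58 it was just inside the 1.5-fold limit. Its dimer partner PSMG2 was at 47.8, 36.7 and 32.5 CPM, also lowest outside milk only. Both chaperones were highest in milk only, as PSME1 and PSMC4 were.

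Cycling keratinocytes, named by genes such as TOP2A and RRM2, had higher summed levels of the 38 genes than other keratinocytes in each library. The sums were 6324 against 4767 CPM in milk only, 5802 against 5088 CPM in hay and 6394 against 5174 CPM in concentrate. The classes held 351, 957 and 977 cycling cells, all of cluster 2 in milk only, whereas concentrate had 698 in cluster 2 and 279 in the S-phase cluster 11.

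Few members passed the 1.5-fold limit in cycling cells. In milk only 3 of 33 were called higher and 0 lower, against 14.8% and 4.31% of all genes. In hay 0 of 32 were called in either direction, against 9.99% and 1.56%, and in concentrate 1 of 32 was called higher and 0 lower, against 13.2% and 1.31%. The share of members called was below that of all genes in each library.

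The median log2 ratio of members was 0.46 in milk only, 0.20 in hay and 0.31 in concentrate, while that of all genes was 0.17, 0.15 and 0.17. Of 31 members measured in all 3 libraries, 30 (96.8%) were above 0 in each, compared with 54.9% of 4116 genes. Scaling by the median ratio lowered the member medians to 0.29, 0.05 and 0.14 and removed the 4 calls. The share of higher among all called genes then went from 77.4% to 54.8% in milk only, from 86.5% to 71.4% in hay and from 90.9% to 71.3% in concentrate. Median UMIs were also higher in cycling than in other keratinocytes, at 20460 against 12101, 8315 against 5638 and 11632 against 7490.5. The part of depth in these small shifts was not tested.

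The genes called in milk-only cycling cells were PSMC5, an ATPase, PSMD1, and PSMD14, the enzyme that cuts off the ubiquitin chain. PSMD14 was at 140.2 CPM in cycling and 90.1 CPM in other cells of milk only, 131 and 107 CPM in hay, and 175 and 121 CPM in concentrate. PSMC5 was at 205 and 132 CPM, 179 and 134 CPM, and 212 and 150.2 CPM. In concentrate the single call was PSMG2, with 43.5 CPM in cycling and 28.4 CPM in other cells. No member was called in all 3 libraries.

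PSME1 stood at the other end, with log2 ratios of 0.00 (interval of the ratio 0.923 to 1.08), -0.13 and -0.06 in milk only, hay and concentrate. It was the single member of the 31 at or below 0 in every library. PSMB4, a beta subunit, followed with 0.20, 0.11 and 0.07. With totals as the scaling, PSME1 thus did not share the small upward shift of the core and 19S genes. In hay the members' median of 0.20 was near the 0.15 of all genes. Under other settings PSMB4 fell to -0.04 in hay and -0.10 in concentrate, and PSME1 rose to 0.02 in concentrate.

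Differentiated keratinocytes had 814 cells in milk only, nearly the whole of cluster 8, whose leading genes include the cornified-envelope genes CNFN and PI3. The 53 cells of hay and 91 of concentrate were mostly in another cluster, number 13, led by KRT10 and SPINK5, with 36 and 77 cells. Median UMIs of the class were 3521, 7326 and 16506, so depth differed between these populations. Sums of the 38 genes in differentiated cells were 5724, 6048 and 6115 CPM, above the other keratinocytes of each library. Membership of the class depended on the clustering. At resolution 0.3 it held 744, 313 and 139 cells of milk only, hay and concentrate. All lay in a single cluster led by CNFN and PI3.

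In milk-only differentiated cells 6 of 33 members were called higher and 0 lower, against 17.4% and 36.4% of all genes. In hay 4 of 32 were called higher and 0 lower, against 17.7% and 17.6%, and in concentrate 8 were called higher and 1 lower, against 16.6% and 32.1%. The share called higher was near that of all genes in milk only and hay. Lower calls were few among members where they were many among all genes.

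The members' median log2 ratio was 0.28, 0.18 and 0.33 in milk only, hay and concentrate, and that of all genes -0.29, -0.16 and -0.25. With the 50 most abundant genes left out of the totals, a setting chosen after seeing the data, the member medians became 0.11, -0.04 and 0.19, so the direction in hay flipped. Of 31 members measured throughout, 21 (67.7%) were above 0 in all 3 libraries, against 26.1% of 4001 genes. Scaling by the median ratio moved the share of higher among all calls from 32.4% to 50.4% in milk only, from 50.2% to 62.8% in hay and from 34.1% to 52.3% in concentrate. It gave 16, 8 and 15 called members, all higher except 1 in concentrate. Of all genes, 26.5%, 21.5% and 24.4% were then called higher and 26.1%, 12.7% and 22.3% lower.

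**Figure D3:**
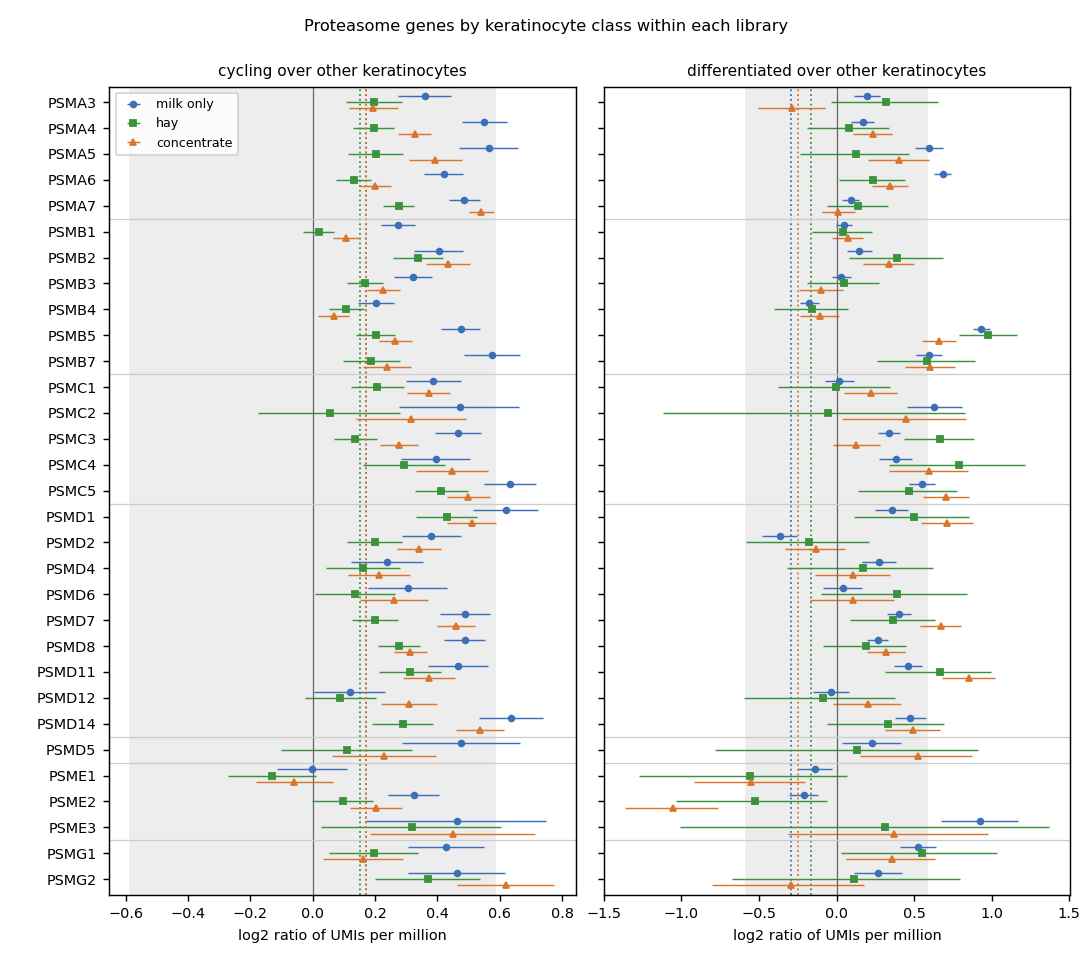
Log2 ratios within each library for the 31 members measured in all comparisons, cycling over other keratinocytes (left) and differentiated over other keratinocytes (right, wider axis), with exact 95% intervals; the grey band is 1.5-fold and dotted lines are medians of all measured genes per library. In the left panel nearly all symbols lie between 0 and the edge of the band, and in the right panel PSMB5 lies beyond the band in all 3 libraries while PSME1 and PSME2 lie left of 0, in milk only with a sign that other settings changed.

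PSMB5 (ENSOARG00000019380), which encodes the chymotrypsin-like catalytic subunit, was the single member called higher in differentiated cells of all 3 libraries. It was at 496 CPM in differentiated and 260.0 CPM in other cells of milk only, 548 and 278 CPM in hay, and 463 and 293 CPM in concentrate. Every differentiated value was above every other-keratinocyte value. The ratios were 1.91 (1.84 to 1.98), 1.97 (1.73 to 2.23) and 1.58 (1.47 to 1.70). In concentrate PSMB5 was not called with the 50 most abundant genes left out of the totals (log2 0.53) or at a clustering resolution of 0.3 (log2 0.53). In cycling cells PSMB5 was at 361, 320.1 and 353 CPM.

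PSMB7, the other measured catalytic subunit, had ratios in the same direction. It was at 177 CPM in differentiated and 117 CPM in other cells of milk only, 190.1 and 127 CPM in hay, and 205 and 135 CPM in concentrate. PSMB7 was called higher in milk only and concentrate, while in hay its log2 ratio of 0.58 fell just short. The beta subunit PSMB4, which has no proteolytic site, was at 304, 323 and 329 CPM in differentiated cells and 344, 361 and 355 CPM in other cells. The 3 beta subunits therefore did not move as a unit across the classes.

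Other genes called higher differed between libraries. In milk only they were the alpha subunits PSMA5 and PSMA6, the ATPase PSMC2 and the activator PSME3. In hay they were PSMC3, PSMC4 and PSMD11, all of the 19S particle, and in concentrate PSMC4, PSMC5, PSMD1, PSMD7, PSMD11 and PSME4. PSMD11, a scaffold of the 19S lid, was at 154 against 112 CPM in milk only, 164 against 103 CPM in hay and 194 against 107 CPM in concentrate. Differences between the libraries in these calls were not tested.

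PA28 was at the other end. PSME2 was at 139 CPM in differentiated and 162 CPM in other cells of milk only, 81.8 and 118 CPM in hay, and 58.4 and 121 CPM in concentrate. It was called lower in concentrate, with a ratio of 0.481 (0.388 to 0.589). PSME1 was at log2 ratios of -0.14, -0.56 and -0.55 without a call. The milk-only ratios of both genes changed sign under other settings, with log2 ranges of -0.30 to 0.15 for PSME1 and -0.38 to 0.08 for PSME2.

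PSMB8 and PSMB9, the inducible counterparts, were also lower in differentiated than in other cells of hay and concentrate. PSMB8 was at 15.5 against 91.4 CPM in hay and 3.65 against 17.8 CPM in concentrate, while in milk only it was at 66.8 against 73.9 CPM. PSMB9 was at 24.3 against 75.05 CPM in hay, 3.04 against 10.7 CPM in concentrate and 37.8 against 49.4 CPM in milk only. In differentiated cells of hay and concentrate these values rest on few counts, 7 and 6 UMIs for PSMB8 and 11 and 5 for PSMB9. PSMB10 was at 44.2 CPM (interval 27.0 to 68.3) against 35.3 CPM in hay and 31.0 CPM (23.1 to 40.8) against 40.1 CPM in concentrate. Both intervals included the value of the other cells. In milk only PSMB10 was at 38.4 against 57.3 CPM.

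Immune cells here are the T or NK-like cluster 10 and the macrophage or dendritic-like cluster 12 together, with 446 cells in milk only, 37 in hay and 94 in concentrate. Their sums of the 38 genes were 5388, 7108 and 6097 CPM. The mix differed, with 334, 6 and 44 T or NK-like and 112, 31 and 50 macrophage or dendritic-like cells. The sums were 5095, 4927 and 5583 CPM in T or NK-like cells and 5763, 7504 and 6425 CPM in macrophage or dendritic-like cells. Pooled immune values of the libraries thus also differ in cell mix. The hay cells gave 156153 UMIs in all and are described by levels and ratios, only some of them with intervals, and with no count of calls. KRT15 was at 1876, 1703 and 1533 CPM in immune cells, so keratinocyte RNA was counted in their barcodes, and doublets were not removed.

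Relative to keratinocytes of the same library, 4 of 32 members were called higher and 3 lower in milk-only immune cells, against 31.5% and 28.1% of all genes. In concentrate 3 of 32 were called higher and 4 lower, against 32.6% and 12.8%. The members' medians were -0.01 and 0.03, with 0.04 and 0.40 for all genes. Scaling by the median ratio moved the concentrate median of members to -0.37 with 13 calls, 11 of them lower. Of all genes, 24.3% were then called higher and 21.7% lower. The share of higher among all calls moved from 71.7% to 52.8%. As a whole the members were thus called less often than the average gene in milk only, and the concentrate pattern depended on the scaling.

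PSMB5, PSME1 and PSME2 were the 3 members called in the same direction in both libraries. PSMB5 was at 119 CPM in immune cells of milk only (interval 109 to 131), 141 CPM in hay (88.3 to 213) and 136 CPM in concentrate (98.6 to 183). The keratinocyte values of 289 to 321 CPM were above all of these intervals. PSMB5 was 2.69-fold lower (2.45 to 2.96) in milk only and 2.32-fold lower (1.72 to 3.21) in concentrate. In immune cells without a KRT15 UMI (171 of 446 and 50 of 94 cells), a selection chosen after seeing the data, its log2 ratio was -2.26 and -1.42, compared with -1.43 and -1.22 over all immune cells.

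The inducible subunits stood in the opposite direction. PSMB8 was at 982 CPM in immune cells and 78.0 CPM in keratinocytes of milk only, 1870.0 and 92.9 CPM in hay, and 1771 and 16.9 CPM in concentrate. PSMB9 was at 1092 and 54.6 CPM, 1684 and 81.2 CPM, and 1701 and 11.6 CPM. PSMB10, the third, was at 276 and 58.7 CPM, 346 and 36.8 CPM, and 272 and 40.9 CPM. PSMB7 was lower in immune cells of milk only, at 109 CPM (interval 98.6 to 120) against 138 CPM (134 to 141) in keratinocytes, without a call. In hay it was at 167 CPM (109 to 244) against 131 CPM, and in concentrate at 143 CPM (104 to 191) against 144 CPM. The immune intervals of hay and concentrate included the keratinocyte value.

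**Figure D4:**
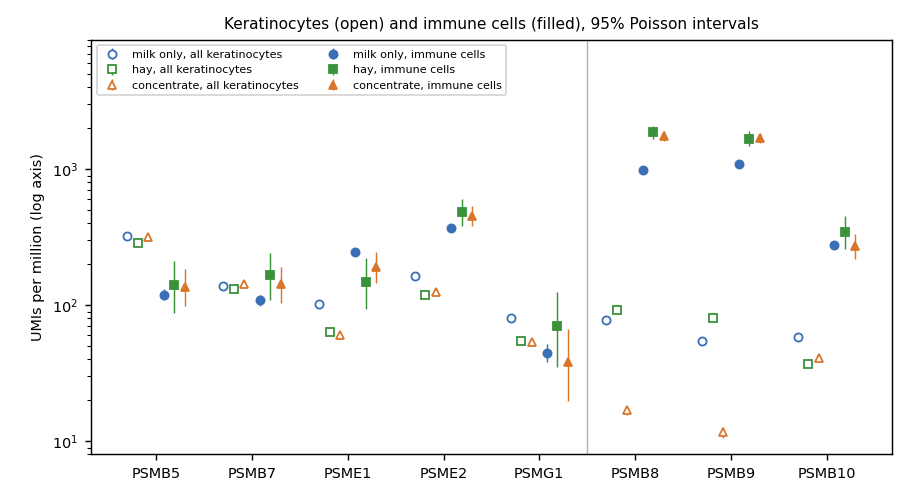
Levels in CPM (log axis) of PSMB5, PSMB7, PSME1, PSME2 and PSMG1 and, right of the line, of the inducible PSMB8, PSMB9 and PSMB10, in keratinocytes (open symbols) and immune cells (filled symbols) of each library, with exact 95% Poisson intervals. Filled symbols lie below open ones for PSMB5 and above them for PSME1, PSME2 and the 3 inducible genes.

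PSME1 was at 247 CPM in immune cells of milk only, 147 CPM in hay and 190.0 CPM in concentrate. Its ratio to keratinocytes was 2.41 (2.24 to 2.58), 2.30 (1.46 to 3.46) and 3.17 (2.41 to 4.09). PSME2 was at 369, 487 and 456 CPM, with ratios of 2.25 (2.12 to 2.38), 4.09 (3.22 to 5.13) and 3.67 (3.09 to 4.33). The intervals of these ratios were above 1 for both PA28 genes in all 3 libraries.

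Within the immune cells of milk only, PSME1 was at 199 CPM in the 334 T or NK-like and 307 CPM in the 112 macrophage or dendritic-like cells. PSME2 was at 278 and 485 CPM in these cells, and PSMB5 at 111 and 130 CPM. The difference from keratinocytes thus had the same direction in both immune clusters. PSMG1 was at the low end, with 44.8 CPM in immune cells and 80.7 CPM in keratinocytes of milk only, 70.4 and 54.4 CPM in hay, and 38.0 and 54.1 CPM in concentrate. Its immune intervals in hay (35.2 to 126) and concentrate (19.6 to 66.4) included the keratinocyte value.

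The remaining calls were found in 1 library each. In milk only they were PSMB2 and PSMD12, higher, and PSMG1 and PSMD5, lower. PSMD5, a 19S assembly factor, was at 13.9 against 31.8 CPM. In concentrate PSMA6 was higher, and PSMA5, PSMD2 and PSMD7 were lower. PSMD12, a lid subunit, was at 173 CPM in immune cells and 95.5 CPM in keratinocytes of milk only but at 114 and 105 CPM in concentrate.

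Across the 16 clusters, the summed level of the 38 genes was lowest in the CCDC80 and FST cluster 5 at 4154 CPM and cluster 7 at 4335 CPM. It was highest in the endothelial-like cluster at 6642 CPM, from 67 cells, and the cycling cluster 2 at 6231 CPM. Cluster 9, whose cells had a median of 0.475% mitochondrial UMIs, was at 6139 CPM. Within cluster 2, which all 3 libraries share, the sums were 6324, 5806 and 6532 CPM in milk only, hay and concentrate.

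**Figure D5:**
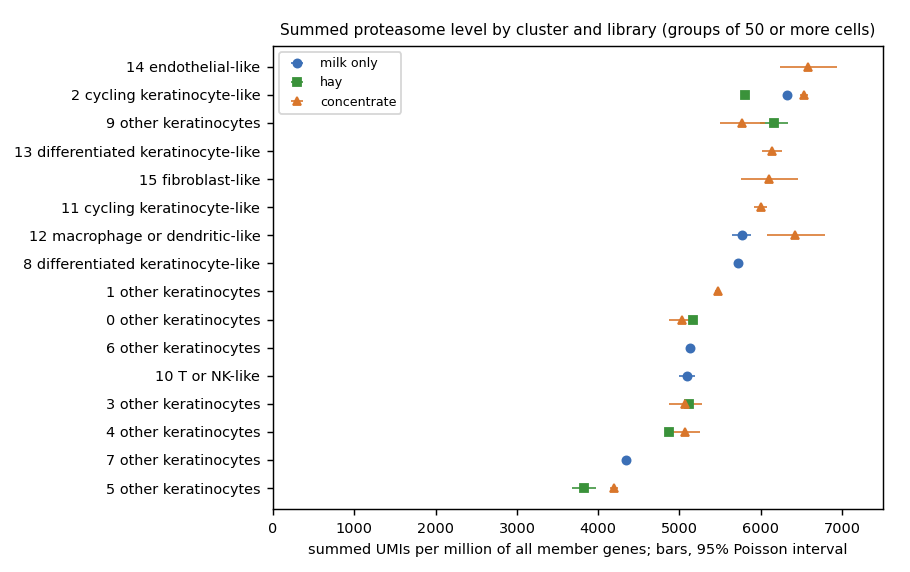
Summed CPM of the 38 genes by cluster, 1 symbol for each library with 50 or more cells in the cluster, ordered by the cluster's level over all libraries, with exact 95% Poisson intervals; the axis starts at 0. Clusters 5 and 7 are lowest, and the cycling cluster 2 is near the top in each library.

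Other genes of the pathway were compared in all keratinocytes in the same way. Of 10 measured other proteasome factors, 0 were called higher and 1 lower in hay and likewise in concentrate against milk only. The shares of all genes were 5.13% and 20.7% in hay and 9.38% and 13.0% in concentrate, so 1 of 10 was not above the background. The list medians were -0.19 and -0.14, with -0.16 and 0.04 for all genes. The 1 gene was ZFAND5, a ubiquitin-binding activator of the proteasome, at 124 CPM in milk only, 51.9 CPM in hay and 61.6 CPM in concentrate. POMP, the maturation factor of the core, was at 318, 254 and 310.4 CPM.

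Of 8 measured shuttle factors and partners of the ATPase VCP, 0 were called in either comparison. Among 3 measured regulators, NFE2L1, a transcription factor that drives proteasome genes, was at 12.1 CPM in milk only, 7.12 CPM in hay and 12.7 CPM in concentrate, and was called lower in hay.

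By number of calls, heat shock genes stood first among the lists of this section, which differed in length. In hay 4 of 10 were called higher and 1 lower against milk only, and in concentrate 2 higher and 1 lower. Of all genes 5.13% were called higher and 20.7% lower in hay, and 9.38% and 13.0% in concentrate. HSPH1, a disaggregase partner, was at 65.4, 138 and 63.7 CPM in milk only, hay and concentrate. HSPB1, a small heat shock protein gene, was at 1061, 600 and 612 CPM. Of 5 chaperonin genes 0 were called.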

How the data were processed

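Gene-by-cell matrices of UMI counts were deposited by the authors for each library. Cell Ranger 3.1 is named in the submitters' processing notes, whereas 5.0.0 stands in the matrix headers, per the file headers. Aligner settings, genome build and annotation were not given in the sources used here, and no sequence table was used. The counts were whole numbers and not normalized. Of 26247 genes, 17043 had a symbol.

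Cells were kept from 500 detected genes upwards if 13 mitochondrial genes held less than 20% of their UMIs. No doublet caller was run. They were scaled to 10000 UMIs and clustered without integration on 2000 variable genes, none of them a member, with 30 principal components, 15 neighbours and Leiden resolution 0.6 (Python 3.11.15, scanpy 1.11.5, leidenalg 0.10.2, numpy 2.4.6, scipy 1.17.1, pandas 2.3.3, matplotlib 3.10.9). A cluster was named where at least 3 markers of a list reached 20 CPM and 3 reached 2-fold, by the list with most markers among its 10 leading genes of at least 50 CPM. This naming rule was chosen after seeing the data, and spinous and granular lists were joined as differentiated. Raw counts were summed per library and class, divided by the class total and compared as ratios with exact conditional binomial intervals. Levels have exact Poisson intervals, and intervals and the floor of 3 counts cover counting error only. The ratio calculation was tested on simulated Poisson counts, which hold counting error only and no variation between cells or libraries.

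Named in each diet comparison were all called members and the 3 highest and 3 lowest ratios. For classes and immune cells, members called in the same direction in every tested library and those at the other end were named. Others named, among them PSMB7, PSMD11 and members called in 1 library, were chosen after their values were seen. Members and lists were chosen with earlier results of these data known. The companion list of ubiquitin genes is not reported here.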

Additional observations from a re-analysis of the deposited data

How the results depend on the processing

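The number of called members depended on the fold limit and the scaling. At a log2 limit of 0.32 in place of the 1.5-fold limit, 6, 12 and 2 members were called in hay over milk only, concentrate over milk only and concentrate over hay, 25, 4 and 14 in cycling cells and 16, 11 and 17 in differentiated cells of milk only, hay and concentrate, and 13 and 12 in immune cells of milk only and concentrate. The shares of all genes at that limit were 50.6%, 46.8% and 40.9% for diets, 44.3%, 31.0% and 36.6% in cycling, 74.1%, 40.0% and 59.9% in differentiated and 73.1% and 48.4% in immune cells. At 2-fold these counts were 0, 0 and 0 for diets, 0 in cycling cells of milk only and concentrate, 0, 0 and 1 in differentiated cells, and 4 and 3 in immune cells, where all genes gave 11.5%, 9.0% and 4.33% for diets, 7.81% and 6.91% in cycling, 31.5%, 26.2% and 30.3% in differentiated and 40.2% and 38.2% in immune cells. Median-of-ratios scaling moved the median of all genes by 0.16 in hay over milk only. With it, 0, 5 and 0 members were called for diets and 0 in cycling cells of milk only and concentrate. In differentiated cells 16, 8 and 15 were called, and in concentrate immune cells 13. Of all genes, 9.49%, 8.1% and 6.82% were then called higher and 15.2%, 13.8% and 4.5% lower for diets. In cycling cells the shares were 9.57% and 7.89% in milk only and 8.95% and 3.6% in concentrate. Those of differentiated and immune cells are given above. With the 50 most abundant genes left out of the totals, 0 members were called in hay over milk only. In milk only and concentrate, 0 were called in cycling cells and 2 and 4 in differentiated cells. Of all genes, 8.54% were called higher and 15.8% lower in hay over milk only. In cycling cells the shares were 10.2% and 6.74% in milk only and 9.74% and 2.68% in concentrate. In differentiated cells they were 13.6% and 44.1% in milk only and 13.9% and 38.5% in concentrate. Averaging CPM per cell gave 6 in concentrate over milk only, 9 and 2 in cycling cells of milk only and concentrate, and 15 and 9 in differentiated cells of milk only and hay. Weighting keratinocyte classes alike gave 4 in hay and 5 in concentrate against milk only. Leaving out cluster 7 gave 5 in each. For concentrate over hay, under 10% mitochondrial UMIs or at least 50 CPM gave 0, and the latter gave 0 in concentrate cycling cells. Resolution 0.3 gave 0 in cycling and 5 in differentiated cells of concentrate, and resolution 1.2 gave 2 in differentiated cells of hay. Within classes, hay over milk only gave 1 member in cycling cells under median-of-ratios scaling or without the 50 most abundant genes and 0 at 2-fold. In other keratinocytes it gave 0 without the 50 most abundant genes, 3 without cluster 7, 0 at 2-fold, 8 at 0.32 and 2 at resolution 0.3, and in differentiated cells 8 by the mean per cell and 1 at 2-fold. Concentrate over milk only gave 2 in cycling cells at 50 CPM, 0 at 2-fold and 8 at 0.32. In other keratinocytes it gave 2 by the mean per cell, 2 at 50 CPM, 0 at 2-fold and 11 at 0.32, and in differentiated cells 4 at 2-fold and 18 at 0.32. For class comparisons the total without the 50 most abundant genes, all settings for differentiated cells of hay and concentrate and for diets within classes, immune cells without KRT15 and the omission of cluster 9 were chosen after seeing the data. Causes of these shifts were not tested. Where no share of all genes stands beside a count, the count was not set against a background. No paired analysis was possible because each diet had 1 library. No replicate could be left out for the same reason, and genes near the minimum of 10 CPM, such as PSME4, had the widest intervals.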
